A study of Rattus rattus with 24 samples.

Results

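The genes of the collagens, the laminins and the integrins were followed in rat OPCs (oligodendrocyte precursor cells) under 4 culture conditions and at 2 times. They were chosen by symbol: every collagen chain gene, every laminin alpha, beta or gamma chain gene, and every gene whose symbol begins with Itga or Itgb, provided that the array held a probe set annotated to that symbol alone. This gave 77 of the 14217 genes on the array, with 112 probe sets, and each gene was read by its probe set with the highest mean over all 24 arrays. By role there were 11 fibrillar collagens, 8 basement membrane collagens, 22 other collagens, 10 laminin chains, 7 integrin subunits that bind laminin or collagen, 7 that bind RGD ligands, 8 of leukocytes or of the alpha 9 type, and 4 genes that are not integrin subunits but share the prefix (Itgb1bp1, Itgb3bp, Itgb1bp2 and Itgbl1). The chain genes Col4a3, Col6a4, Col21a1, Col28a1, Lamb4, Itga2, Itga10, Itgb8 and Itga4 were not analysed here.

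Collagens are trimers of alpha chains, wound as a triple helix, that give matrix its fibrils and, as collagen IV, the network of basement membranes. Laminins are trimers of an alpha, a beta and a gamma chain that polymerise on cell surfaces, and integrins are receptors of an alpha and a beta subunit that tie such ligands to the actin cytoskeleton. In oligodendrocytes, laminin acts mainly through the integrin of the alpha 6 and beta 1 subunits and is known to promote survival, process outgrowth and myelin formation, while integrins of the alpha V subunit are known from precursor migration and proliferation.

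The cells were A2B5-selected from the cortex of rat pups, expanded with PDGF and then kept in OPC medium with T3 at 45 nM plus quetiapine at 1 μM (the combination), with T3 (triiodothyronine, the active thyroid hormone) at 45 nM, with quetiapine (an atypical antipsychotic) at 1 μM, or with the DMSO vehicle alone (control), for 48 or 96 hours. DMSO was also the solvent of the compounds, and the medium of all groups, control included, contained B27, a commercial supplement that carries a low level of T3. Each of the 8 groups held 3 arrays, 1 from each of 3 biological replicates, so a replicate number names the same cell preparation in every group. Values are log2 expression, on which a difference of 1 is a doubling, and levels are not compared between genes because each probe set has its own brightness.

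The arrays had medians between 6.43 and 6.51, and arrays of the same group correlated across probe sets with Pearson's r of 0.986 to 0.996. The label of the cells was checked against marker lists. The mean of 8 oligodendrocyte precursor markers lay between 10.6 and 11.4 over the arrays and that of 9 mature oligodendrocyte markers between 10.1 and 13.1, and no gene of either list was among the dimmest 40% of probe sets. Mbp, the myelin basic protein gene, had a mean of 14.1 and Pdgfra, the PDGF receptor of precursors, of 12.1 over all arrays. None of the 7 astrocyte markers was among the dimmest 40% either (list mean 10.3 to 11.8 over the arrays, with Gfap at 13.3). Of the 12 microglial markers 6 were among the dimmest 40% (list mean 5.29 to 6.68), of the 11 fibroblast and mural markers 6, including Dcn and Lum (list mean 5.24 to 5.82), and of the 7 endothelial markers 5 (list mean 4.52 to 4.83). These means can be set against each other between arrays but not between lists, which rest on different probe sets. In such bulk cultures, fewer cells of a type and less RNA per cell cannot be told apart.

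**Figure D1:**
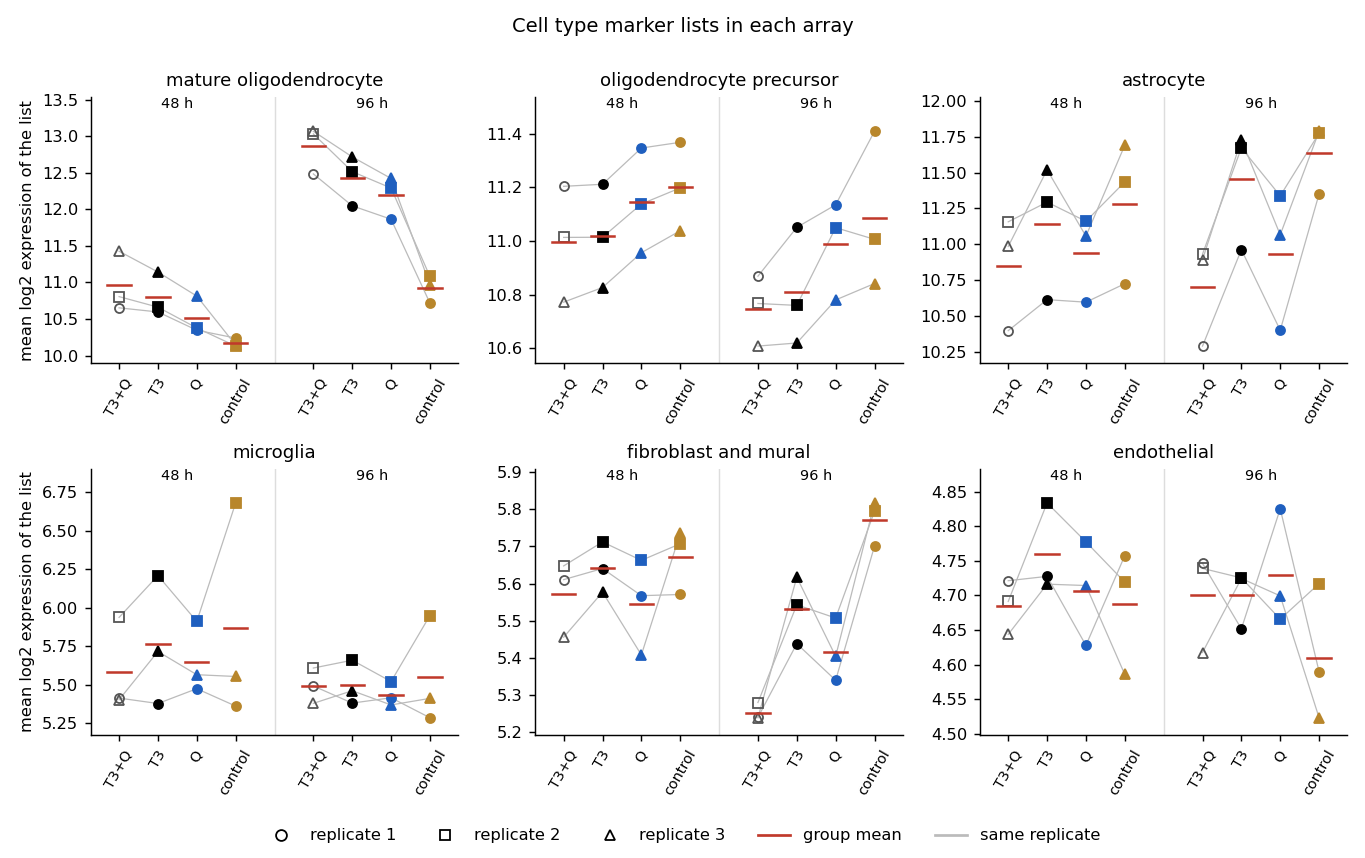
Mean log2 expression of 6 lists of cell type markers (y axis) in each of the 24 arrays by treatment and time (x axis, Q for quetiapine), with grey lines joining arrays of the same replicate and red bars for group means. At 96 hours the mature oligodendrocyte list lies at 12.5 to 13.1 with the combination and 10.7 to 11.1 in control, and the fibroblast and mural list at 5.24 to 5.28 and 5.70 to 5.82. The median log2 change over the 11 genes of that last list was -0.087.

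Changes were tested with limma over all 31042 probe sets other than control probe sets, separately for each time. A gene is called, and is said here to have risen or fallen, if its change exceeded 1.5-fold and its p, adjusted by Benjamini-Hochberg, was under 0.05. That fit has no term for the replicate, although arrays of the same preparation deviated together, and wherever a second fit, which takes the replicate as a block, made a different call, its value is given too. Of the 77 genes, 41 had a mean above the dimmest 40% of probe sets (a log2 level of 5.80) and 36 did not. In all, 15 genes were called in at least 1 comparison without the block, 12 of them brighter than that limit, and 62 in none. Of these 62, the fit with the block called 4, namely Col12a1, Itgb4, Lama4 and Lamb2.

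At 96 hours with the combination, 9 of the 77 genes rose and 6 fell against control, beside 6.91% of all probe sets called higher and 8.37% called lower. Their median change was 0.028, against 0.016 over all probe sets. The genes that rose were Col9a3, Col11a2, Lamb1, Itga6, Itgb2, Itgal, Col9a2, Col7a1 and Itgb3, and those that fell were Col4a5, Col5a2, Lama5, Col14a1, Itgb5 and Col4a1. With T3 alone Col11a2, Col9a3 and Itga6 rose and none fell (3.35% of all probe sets called higher and 2.48% lower), and with quetiapine alone Col9a3 rose and Lama5 fell (2.14% higher and 1.15% lower). The medians were 0.029 with T3 and -0.0086 with quetiapine, against -0.0079 and 0.0023 over all probe sets. At 48 hours 3 genes rose with the combination, Lamb1, Col11a2 and Col9a3, and none fell (1.3% of all probe sets called higher and 1.28% lower), and 2 rose with T3, Col11a2 and Lamb1, and none fell (0.57% higher and 0.11% lower). Quetiapine at 48 hours gave no call among the 77 in limma, where 3 had an unadjusted p under 0.05 (0.0773% of all probe sets called higher and 0.029% lower). These comparisons share their control arrays. The shares given here and below cover all probe sets, dim and unannotated ones included, whereas each gene counts once, by its brightest probe set.

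With the replicate as a block, the counts among the 77 genes at 96 hours were 10 risen and 7 fallen with the combination (7.53% of all probe sets higher and 9.57% lower in the same fit), 6 and 5 with T3 (4.46% and 4.26%), and 2 and 3 with quetiapine (2.97% and 3.49%). At 48 hours they were 7 and 4 with the combination (2.22% and 2.82%), 5 and 0 with T3 (1.7% and 0.622%), and 1 and 0 with quetiapine (0.464% and 0.509%). The 4 that fell with the combination at 48 hours were Col4a5, Lamb2, Lama5 and Col5a2, none of which was called there without the block. Single arrays also moved the counts without the block. Without control replicate 1 at 96 hours, 3 genes fell with T3 (Col14a1, Itgb5 and Lama5) and 3 with quetiapine (Lama5, Col14a1 and Itga7), and without control replicate 2, 5 rose with T3 (Itgal and Itgb2 being added) and 2 with quetiapine (Itgb2 being added). With the combination 3 genes fell, in place of 6, without combination replicate 2 or without control replicate 3. Col7a1 rose with T3 without T3 replicate 3 (0.59, limma adjusted p = 0.0433), Col16a1 fell with quetiapine without quetiapine replicate 2 (-0.71, limma adjusted p = 0.0401), and with the combination Col27a1 rose without combination replicate 1 (0.77, limma adjusted p = 0.0226) and Col1a1 without combination replicate 2 (0.59, limma adjusted p = 0.0133).

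**Figure D2:**
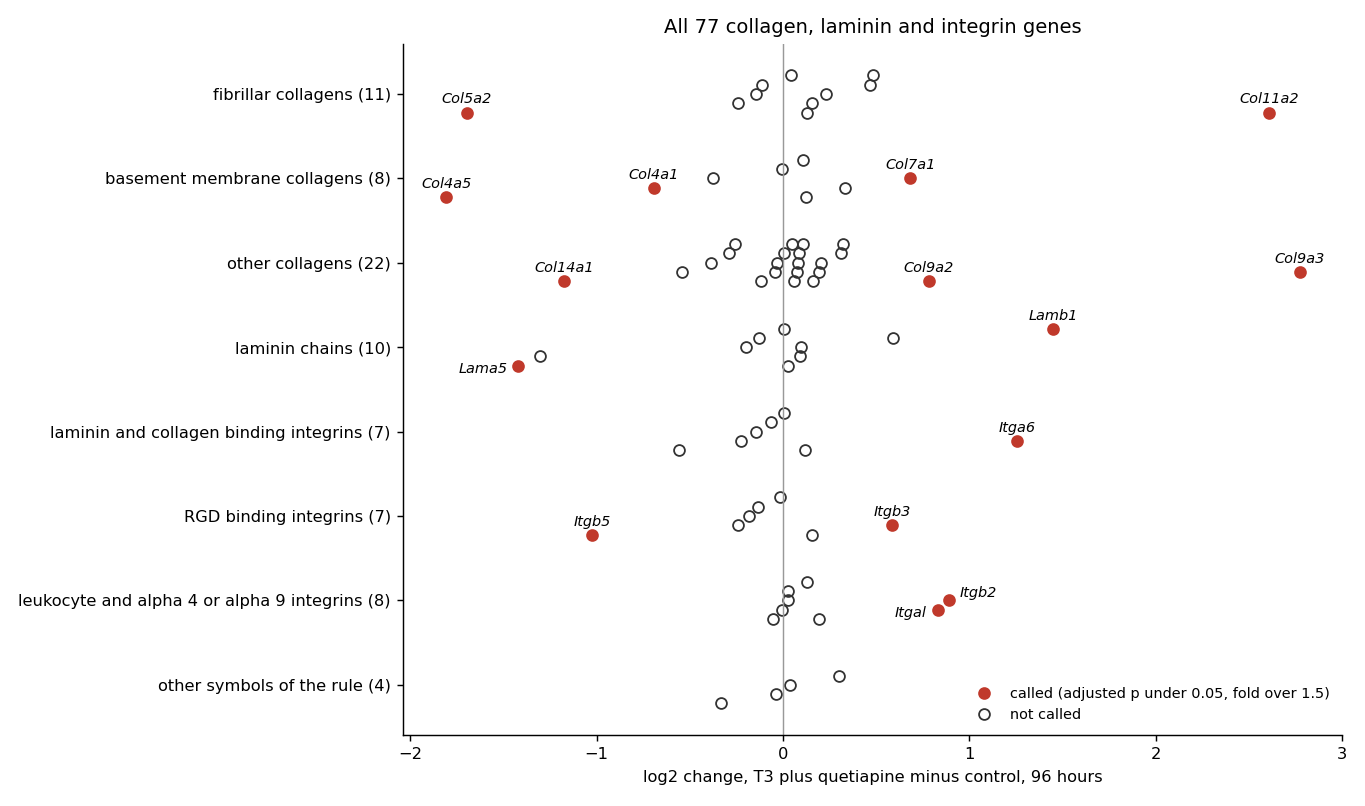
The log2 change of all 77 genes with T3 plus quetiapine against control at 96 hours (x axis), grouped by role (y axis), with filled points for the 15 called genes and open points for the rest. Col9a3 and Col11a2 lie farthest to the right at 2.77 and 2.61, and Col4a5 and Col5a2 farthest to the left at -1.81 and -1.70.

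Among the fibrillar collagens, Col11a2 carried the change with T3. It codes for the alpha 2 chain of collagen XI, a minor fibrillar collagen best known from cartilage. At 48 hours its log2 expression was 9.52, 9.71 and 9.84 with the combination, 9.38, 9.72 and 9.47 with T3, 7.61, 7.45 and 7.22 with quetiapine, and 7.47, 7.46 and 7.10 in control (replicates 1, 2 and 3). At 96 hours it was 10.08, 9.82 and 9.64 with the combination, 9.77, 9.68 and 9.58 with T3, 7.57, 7.49 and 7.22 with quetiapine, and 7.36, 7.31 and 7.05 in control. At both times all arrays with T3, alone or combined, lay far above all arrays without it, and the quetiapine and control arrays overlapped. The changes with T3 were 2.18 ± 0.14 at 48 hours and 2.43 ± 0.13 at 96 hours (SE, n = 3 arrays each; limma adjusted p = 4.06e-05 and 2.07e-06), and those with the combination were 2.35 and 2.61 (limma adjusted p = 1.70e-05 and 5.15e-07). These calls were made also without any single array. Between treatments at 96 hours, Col11a2 was lower with quetiapine than with T3 by -2.25 ± 0.13 (limma adjusted p = 6.93e-06) and higher with the combination than with quetiapine by 2.42 ± 0.13 (limma adjusted p = 2.94e-06).

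Collagen XI is assembled from its own alpha 1 and alpha 2 chains, and a product of Col2a1 is its remaining chain. Col11a1 averaged 8.48 with the combination, 8.89 with T3, 8.44 with quetiapine and 8.63 in control at 96 hours, and was not called there (combination against control -0.14 ± 0.34, limma adjusted p = 0.798). Col2a1, with a mean among the dimmest 40% of probe sets, averaged 5.42 with the combination, 5.29 with T3, 5.24 with quetiapine and 5.26 in control and was not called either (combination against control 0.16 ± 0.12, limma adjusted p = 0.391).

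The fibrillar collagen that fell was Col5a2, the alpha 2 chain of collagen V, which regulates the width of collagen I fibrils. At 96 hours it measured 5.73, 5.90 and 6.73 with the combination, 6.69, 6.95 and 7.71 with T3, 6.36, 7.29 and 7.89 with quetiapine, and 7.25, 7.57 and 8.62 in control. The combination arrays lay below all control arrays, and in every replicate both single treatments lay below control and above the combination. The change with the combination was -1.70 ± 0.45 (limma adjusted p = 0.0155), and the second probe set of the gene fell as well (-1.16, limma adjusted p = 0.0302). Without combination replicate 1, combination replicate 2 or control replicate 3 it was not called (limma adjusted p = 0.0501, 0.0568 and 0.0649). With the replicate as a block, Col5a2 also fell with T3 and with quetiapine (changes of -0.70 and -0.63, limma adjusted p = 0.00409 and 0.00938, against 0.388 and 0.498 without the block), and with the combination at 48 hours (-0.69, limma adjusted p = 0.0115, against 0.559). Col3a1, whose gene lies next to Col5a2, was among the dimmest 40% and averaged 4.42 with the combination and 4.38 in control at 96 hours. The other chains of collagen V were not called, with Col5a1 at 8.02 and Col5a3 at 7.09 with the combination, against 7.89 and 7.20 in control.

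Collagen IX, a collagen that sits on the surface of fibrils of collagens II and XI in cartilage, is a trimer of the chains of Col9a1, Col9a2 and Col9a3. Col9a3 was the member with the largest rise at 96 hours and, in the fit of all arrays without the block, the only one of the 77 that rose with quetiapine alone. At 48 hours it measured 9.85, 10.27 and 10.61 with the combination, 9.70, 10.15 and 9.97 with T3, 9.18, 9.68 and 10.09 with quetiapine, and 8.94, 9.09 and 8.73 in control. At 96 hours it measured 11.40, 11.60 and 11.51 with the combination, 10.48, 10.29 and 10.34 with T3, 11.18, 11.15 and 10.93 with quetiapine, and 8.87, 8.84 and 8.47 in control. At 96 hours the 4 groups did not overlap at all, with the combination highest, then quetiapine, then T3, then control.

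The change of Col9a3 at 96 hours was 2.77 ± 0.12 with the combination, 1.64 ± 0.12 with T3 and 2.36 ± 0.12 with quetiapine (SE, n = 3 each; limma adjusted p = 1.53e-07, 1.55e-05 and 7.22e-06). The gene was higher with the combination than with T3 by 1.13 ± 0.12 (limma adjusted p = 0.00271), which was the one call among the 77 in that comparison (0.715% of all probe sets called higher and 0.419% lower). Quetiapine arrays exceeded T3 arrays by 0.72 ± 0.12 (limma adjusted p = 0.00968), which was not called without T3 replicate 2 (limma adjusted p = 0.0576). Col9a3 and Col11a2 were the 2 calls of that comparison, 1 higher and 1 lower, beside 0.406% of all probe sets called higher and 1.43% lower.

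The log2 changes of Col9a3 with the single compounds summed to more than its change with both, with an interaction of -1.23 ± 0.17 (limma adjusted p = 0.0447). It was the 1 of the 77 genes called lower in that contrast, with none called higher, beside 0.029% and 0.00322% of all probe sets. The call was lost without any 1 of the 12 arrays (limma adjusted p from 0.0662 without combination replicate 1 to 0.159 without T3 replicate 3) and in 1 fit over all 24 arrays (limma adjusted p = 0.374), while the value stayed between -1.31 and -1.10. On the linear scale, in replicates 1, 2 and 3, the combination stood at 5.75, 6.76 and 8.19 times control, whereas the rises with T3 (3.05, 2.73 and 3.65 times control) and quetiapine (4.96, 4.95 and 5.48 times control) would add up to 7.01, 6.68 and 8.14 times control. No test was made on that scale.

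At 48 hours the change of Col9a3 was 1.32 ± 0.24 with the combination (limma adjusted p = 0.0107, and 0.0501 without control replicate 3, which ended the call). With T3 it was 1.02 and with quetiapine 0.73, neither of them called without the block and both called with it (limma adjusted p = 0.00533 and 0.0477 with it, 0.0820 and 0.446 without). That with T3 was also called in 1 fit over all 24 arrays (limma adjusted p = 0.00999). The change was larger at 96 than at 48 hours with the combination, by 1.45 ± 0.28 (limma adjusted p = 0.00403), and with quetiapine, by 1.63 ± 0.28 (limma adjusted p = 0.0191), the one call among the 77 in each of these contrasts (3.01% of all probe sets higher and 1.27% lower with the combination, 0.0966% and 0% with quetiapine). With T3 the difference between times was 0.63 ± 0.28 (limma adjusted p = 0.700).

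Col9a2 rose with the combination at 96 hours. Its log2 expression there was 7.58, 8.04 and 7.83 with the combination, 7.37, 7.61 and 7.38 with T3, 6.95, 7.22 and 7.02 with quetiapine, and 7.08, 7.05 and 6.97 in control, so that the T3 and combination arrays lay above all quetiapine and control arrays, which overlapped. The change was 0.78 ± 0.12 against control and 0.75 ± 0.12 against quetiapine (limma adjusted p = 7.11e-04 and 0.00542), and both were called without any single array. With T3 at 96 hours its change of 0.42 passed the adjusted p (0.0478 in limma) but not the fold limit. So did that with the combination at 48 hours (0.44, limma adjusted p = 0.0314). Col9a1, the remaining chain, averaged 6.62 with the combination, 6.23 with T3, 6.36 with quetiapine and 6.31 in control and was not called (combination against control 0.31 ± 0.68, limma adjusted p = 0.781).

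**Figure D3:**
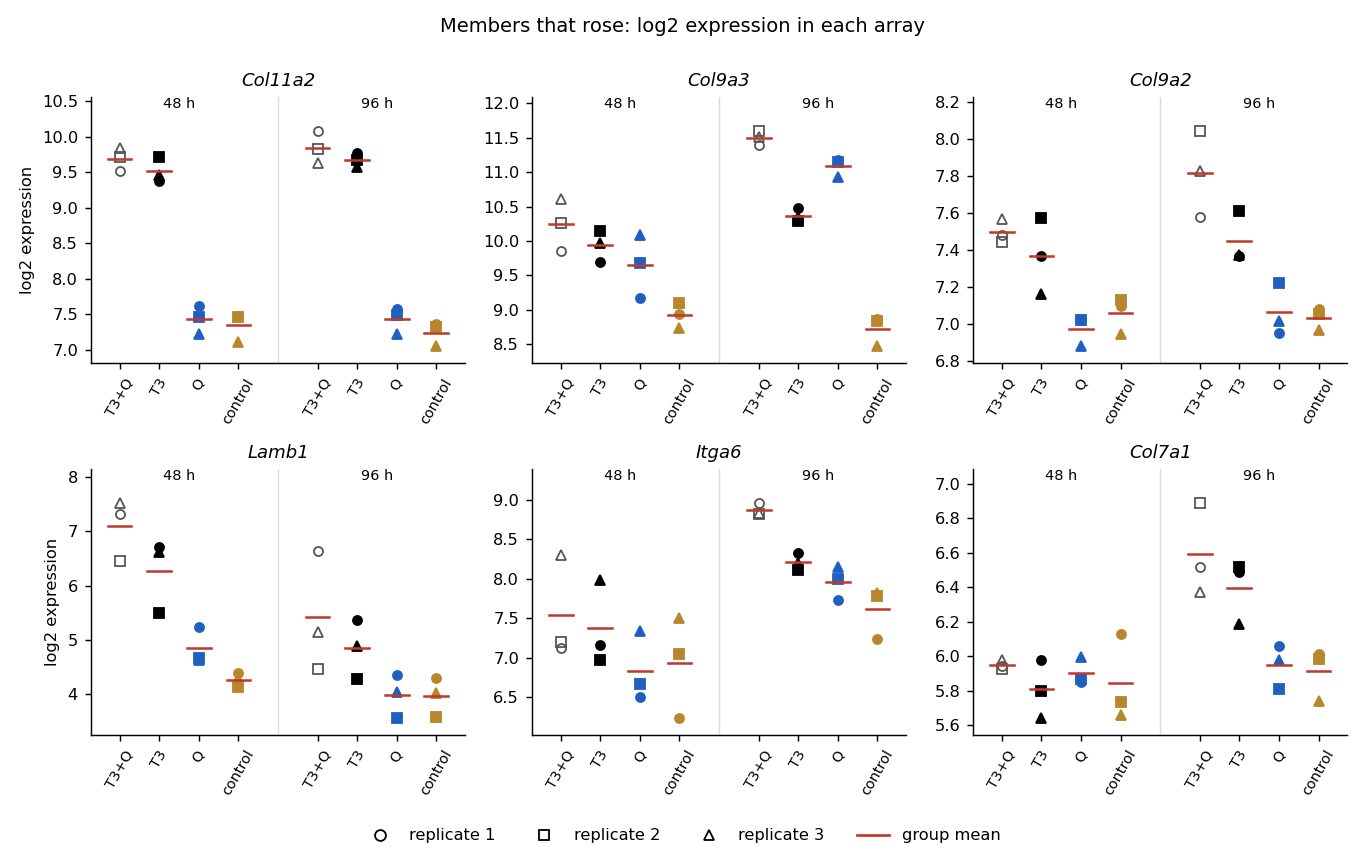
Log2 expression (y axis) of 6 genes that rose in at least 1 comparison, in each array by treatment and time (x axis, Q for quetiapine), with a symbol for each replicate and red bars for group means. Col11a2 is high in both groups with T3 and low in both without it, while Col9a3 at 96 hours is above control in all 3 treated groups.

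Of the other collagens outside the basement membrane, Col14a1 fell and Col12a1 was called only with the block. Both code for collagens that attach to fibril surfaces. The mean of Col14a1 is among the dimmest 40% of probe sets. Col14a1 at 96 hours measured 5.28, 5.26 and 5.34 with the combination, 5.50, 5.51 and 5.59 with T3, 5.33, 5.86 and 5.64 with quetiapine, and 5.44, 6.71 and 7.27 in control. Control replicates 2 and 3 stood apart from the other arrays, while control replicate 1 lay among the T3 and quetiapine arrays and close to the combination. The change with the combination was -1.18 ± 0.34 (limma adjusted p = 0.0239), and it was not called without control replicate 2 or 3 or any combination array (limma adjusted p from 0.0516 to 0.0817). Its second probe set changed by -0.56 (limma adjusted p = 0.0754). With T3 its change was -0.94, called with the block (limma adjusted p = 0.0361, against 0.108 without it). Col14a1 also fell with T3 and with quetiapine (changes of -1.46 and -1.38) once control replicate 1 was left out (limma adjusted p = 9.74e-04 and 0.00201).

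Col12a1 at 48 hours measured 6.41, 6.64 and 6.65 with the combination, 6.56, 6.78 and 6.97 with T3, 5.51, 6.06 and 6.05 with quetiapine, and 5.51, 5.91 and 6.48 in control. Every T3 array lay above every control array, and combination replicate 1 lay below control replicate 3. With the block the changes of 0.80 with T3 and 0.60 with the combination were called (limma adjusted p = 0.00291 and 0.00558, against 0.148 and 0.156 without it). Of the other collagens, 19 of 22 were not called in any direction with the combination at 96 hours. Col16a1, a bright one of these, averaged 8.43 with the combination, 8.47 with T3, 8.51 with quetiapine and 8.97 in control (combination against control -0.54 ± 0.21, limma adjusted p = 0.0731), and the collagen VI chains Col6a1 and Col6a2 averaged 6.01 and 5.78 with the combination, against 5.96 and 5.77 in control.

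Among the basement membrane collagens, Col4a5 and Col4a1 fell and Col7a1 rose with the combination at 96 hours. Col4a5 and Col4a1 code for chains of collagen IV. Col4a5 measured 6.40, 6.95 and 7.32 with the combination, 7.22, 8.10 and 8.29 with T3, 6.63, 8.10 and 7.98 with quetiapine, and 7.92, 8.94 and 9.23 in control. Replicate 1 was the lowest in each group. The combination arrays lay below all control arrays, and in every replicate each treated culture lay below its control. The change of -1.81 ± 0.45 (limma adjusted p = 0.0112) was called without any single array, with 0.0493 as the highest adjusted p. With the block Col4a5 also fell with T3 and quetiapine (changes of -0.83 and -1.13, limma adjusted p = 0.00172 and 4.57e-04, against 0.293 and 0.187 without it), and with the combination at 48 hours (-0.80, limma adjusted p = 0.00661, against 0.432).

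Col4a1 at 96 hours measured 6.88, 6.27 and 6.08 with the combination, 7.03, 6.57 and 6.78 with T3, 7.003, 6.79 and 6.72 with quetiapine, and 7.35, 6.87 and 7.09 in control. It was lower with the combination than in control in each replicate, but combination replicate 1 and control replicate 2 were nearly level, so the groups overlapped. The change was -0.69 ± 0.20 (limma adjusted p = 0.0224), with -0.71 in its second probe set (limma adjusted p = 0.0772). It was not called without control replicate 1, control replicate 3, combination replicate 2 or combination replicate 3 (limma adjusted p = 0.0810, 0.0569, 0.0814 and 0.0883). Col4a2, which neighbours Col4a1 and whose chain joins that of Col4a1 in the common collagen IV trimer, averaged 6.83 with the combination, 6.97 with T3, 6.94 with quetiapine and 7.20 in control. Its change of -0.38 ± 0.10 passed the adjusted p (0.0148 in limma) but not the fold limit.

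Col7a1 codes for collagen VII, the anchoring fibril collagen of skin. At 96 hours it measured 6.52, 6.89 and 6.37 with the combination, 6.49, 6.52 and 6.19 with T3, 6.06, 5.81 and 5.98 with quetiapine, and 6.01, 5.98 and 5.74 in control. The arrays with T3, alone or combined, lay above those without it. The rise with the combination was 0.68 ± 0.14 against control and 0.64 ± 0.14 against quetiapine (limma adjusted p = 0.00427 and 0.0222). Against control it was under the fold limit without combination replicate 2 (0.53). Against quetiapine it was not called without quetiapine replicate 2, quetiapine replicate 3 or combination replicate 2 (limma adjusted p = 0.0889, 0.0674 and 0.0832).

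Lamb1, the laminin beta 1 chain gene, had the largest rise of the 77 genes at 48 hours. It measured 7.33, 6.46 and 7.52 with the combination, 6.72, 5.50 and 6.61 with T3, 5.23, 4.66 and 4.63 with quetiapine, and 4.39, 4.13 and 4.27 in control. The combination and T3 arrays lay above the quetiapine arrays, which in turn lay above control. The changes were 2.84 ± 0.34 with the combination and 2.02 ± 0.34 with T3 (limma adjusted p = 0.00132 and 0.0191). The call with the combination was made without any single array, whereas that with T3 was lost without T3 replicate 1, T3 replicate 3, control replicate 2 or control replicate 3 (limma adjusted p = 0.0637, 0.0803, 0.0844 and 0.0710). With quetiapine the change was 0.58 and was not called with either fit.

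At 96 hours Lamb1 measured 6.63, 4.46 and 5.15 with the combination, 5.37, 4.27 and 4.88 with T3, 4.34, 3.56 and 4.03 with quetiapine, and 4.29, 3.57 and 4.03 in control. Quetiapine and control arrays were level in every replicate, and combination replicate 1 stood above all other arrays. The change with the combination was 1.45 ± 0.47 (limma adjusted p = 0.0391). It was called without combination replicate 2 but not without any 1 of the other 5 arrays (limma adjusted p from 0.0511 without control replicate 1 to 0.117 without control replicate 2), and without combination replicate 1 the change was 0.84. With T3 it was 0.88, with the combination against quetiapine 1.43 and with quetiapine against T3 -0.86, all called with the block (limma adjusted p = 0.0214, 0.00252 and 0.0409, against 0.285, 0.0952 and 0.425 without it). That of the combination against quetiapine was also called in 1 fit over all 24 arrays (limma adjusted p = 0.0403). Lamb1 has a mean among the dimmest 40% of probe sets.

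Lama5, the laminin alpha 5 chain gene, fell with quetiapine as well as with the combination at 96 hours and was, in the fit of all arrays without the block, the 1 gene of the 77 that fell with quetiapine alone. It measured 6.07, 6.36 and 6.36 with the combination, 6.47, 7.04 and 7.36 with T3, 6.22, 6.81 and 6.84 with quetiapine, and 7.23, 7.85 and 7.97 in control. The combination and quetiapine arrays lay below all control arrays, while T3 replicate 3 lay above control replicate 1. The changes were -1.42 ± 0.25 with the combination and -1.06 ± 0.25 with quetiapine (limma adjusted p = 0.00173 and 0.0342), and -0.73 with T3, which was called with the block (limma adjusted p = 7.61e-04, against 0.0932) and without control replicate 1 (-0.96, limma adjusted p = 0.0438). At 48 hours its change with the combination was -0.60, called with the block (limma adjusted p = 0.0109, against 0.291). The call with the combination was made without any single array. That with quetiapine was lost without control replicate 2 or 3 or any quetiapine array (limma adjusted p from 0.0556 without quetiapine replicate 2 to 0.133 without control replicate 3). The other 2 probe sets of Lama5, which were dim, changed by -0.06 and 0.11 with the combination, and the mean of all 3 probe sets missed the fold limit (-0.46 with the combination and -0.38 with quetiapine).

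Lamb2, the laminin beta 2 chain gene, measured at 96 hours 6.29, 7.20 and 7.41 with the combination, 7.07, 8.09 and 8.47 with T3, 6.96, 8.18 and 8.21 with quetiapine, and 7.56, 8.40 and 8.85 in control. Its replicates differed widely, with replicate 1 lowest in each group, and within each replicate the combination was the lowest. The change of -1.30 ± 0.47 was not called (limma adjusted p = 0.0595) and was called with the block (3.36e-06 in limma) and without control replicate 1 (-1.66, limma adjusted p = 0.0318). It was called as well in 1 fit over all 24 arrays (limma adjusted p = 0.0494) and without the dimmest 40% of probe sets (0.0477). At 48 hours its change with the combination was -0.68, called with the block (limma adjusted p = 0.00664, against 0.447). Lama4, the laminin alpha 4 chain gene, was called with the block and under none of the other settings. At 48 hours it measured 9.05, 8.64 and 8.39 with the combination, 8.87, 8.26 and 7.53 with T3, 8.91, 8.11 and 7.30 with quetiapine, and 8.42, 7.76 and 6.85 in control, so the groups overlapped and each treated culture lay above the control of its replicate. The change with the combination was 1.01 (limma adjusted p = 9.78e-04 with the block and 0.259 without). At 96 hours it was 0.59 (limma adjusted p = 0.0391 with the block and 0.439 without).

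Lamc1, the gamma 1 chain gene that most laminin trimers need, averaged 9.16 with the combination, 9.31 with T3, 9.21 with quetiapine and 9.35 in control at 96 hours and was not called (-0.20 ± 0.24, limma adjusted p = 0.593). Of the 10 laminin chains, Lama1, Lama2, Lama3, Lamb1 and Lamb3 had means among the dimmest 40% of probe sets. Lamb1 alone of these was called.

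**Figure D4:**
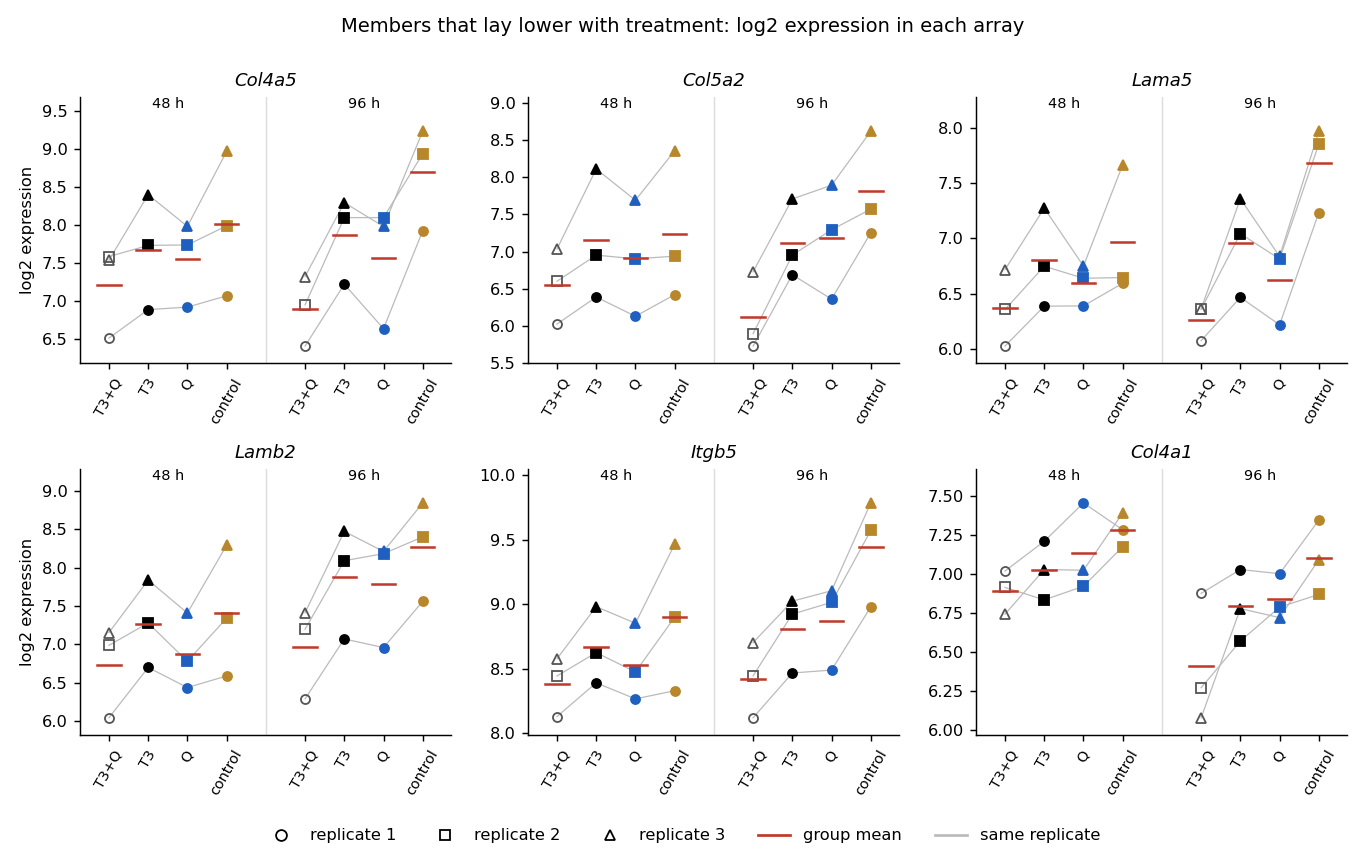
Log2 expression (y axis) of Col4a5, Col5a2, Lama5, Lamb2, Itgb5 and Col4a1 in each array by treatment and time (x axis, Q for quetiapine), with grey lines joining arrays of the same replicate and red bars for group means. At 96 hours the combination is below control in each of the 3 replicates for all 6 genes, and Lamb2 is the 1 of them that was not called there in the fit of all arrays without the replicate as a block.

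The laminin receptor subunit Itga6 rose at 96 hours, both with the combination and with T3. Its protein pairs with the beta 1 subunit in oligodendrocytes and with the beta 4 subunit in epithelia. It measured 8.96, 8.81 and 8.83 with the combination, 8.33, 8.11 and 8.20 with T3, 7.73, 7.99 and 8.15 with quetiapine, and 7.24, 7.79 and 7.82 in control. The combination arrays lay above all others, T3 arrays above all control arrays, and quetiapine arrays overlapped both T3 and control. The changes were 1.26 ± 0.15 with the combination and 0.60 ± 0.15 with T3 (limma adjusted p = 1.59e-04 and 0.0287). The combination also lay above quetiapine by 0.91 ± 0.15 (limma adjusted p = 0.00690) and above T3 by 0.66, which was called with the block (limma adjusted p = 0.0164, against 0.0577 without it), with arrays centred on their medians (0.0431) and without the dimmest 40% of probe sets (0.0467). At 48 hours its change with the combination was 0.61, called with the block (limma adjusted p = 0.0159, against 0.445).

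For Itga6 the call with T3, at a fold of 1.51, was lost without control replicate 1 or any T3 array (limma adjusted p from 0.0632 without T3 replicate 2 to 0.0802 without T3 replicate 1), in 1 fit over all 24 arrays (0.250) and for the mean of all its probe sets (0.0896). The call against quetiapine was lost in the fit over all 24 arrays (limma adjusted p = 0.0803) and, by the fold limit, for the mean of the probe sets (0.43). Of its 4 probe sets the second brightest rose with the combination by 0.93 (limma adjusted p = 9.95e-04), and the others changed by 0.08 and 0.34 and were not called.

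The beta 1 subunit gene Itgb1 averaged 11.10 with the combination, 11.03 with T3, 11.16 with quetiapine and 11.17 in control at 96 hours and was not called (combination against control -0.07 ± 0.08, limma adjusted p = 0.600). Itga3, a laminin receptor subunit among the brighter genes, was not called with either fit. With the combination at 96 hours it differed from control by -0.15, -0.11 and -0.41 in replicates 1, 2 and 3. Itga7, another such subunit, averaged 6.86 with the combination, 7.07 with T3, 6.84 with quetiapine and 7.42 in control. With quetiapine its change was -0.58, the largest in size of the 58 genes called with neither fit in a treatment against control, and it was called without control replicate 1 (-0.81, limma adjusted p = 0.00595), as was that with the combination (-0.56 with all arrays and -0.79 without it, limma adjusted p = 0.0328 and 0.00147). Itga7 changed by -0.77 in another probe set with the combination, which was called (limma adjusted p = 0.0464).

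Itgb4, the beta 4 subunit gene, with a mean among the dimmest 40% of probe sets, had a pattern of its own at 96 hours. It measured 5.31, 6.15 and 5.93 with the combination, 5.50, 7.74 and 7.83 with T3, 5.23, 5.68 and 5.33 with quetiapine, and 5.33, 6.32 and 6.18 in control. T3 replicates 2 and 3 stood above every other array of that time, while T3 replicate 1 was level with the low arrays. The change with T3 was 1.08 ± 0.53, which was called with the block (limma adjusted p = 0.0353, against 0.233 without it) and without T3 replicate 1 (1.84, limma adjusted p = 0.00525). The combination was lower than T3 by -1.23 and quetiapine lower than T3 by -1.61, again called with the block (limma adjusted p = 0.0359 and 0.0110, against 0.273 and 0.152) or without T3 replicate 1 (0.0147 and 0.00285), and the second of these also in 1 fit over all 24 arrays (0.0391). At 48 hours Itgb4 changed by 0.60 with T3 (limma adjusted p = 0.341, and 0.0437 with the block).

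Among the RGD-binding integrin subunits, which recognise fibronectin, vitronectin and related ligands, Itgb5 fell and Itgb3 rose with the combination at 96 hours. Both beta subunits pair with the alpha V subunit. Itgb5 measured 8.12, 8.45 and 8.70 with the combination, 8.47, 8.92 and 9.02 with T3, 8.49, 9.01 and 9.10 with quetiapine, and 8.98, 9.57 and 9.79 in control. The combination arrays lay below all control arrays, and the single treatments lay between them in every replicate. The change was -1.02 ± 0.24 (limma adjusted p = 0.00829), called without any single array, and the second probe set fell as well (-1.44, limma adjusted p = 0.00505), while the remaining one, which was dim, changed by -0.15. With T3 Itgb5 changed by -0.64, called with the block (limma adjusted p = 2.32e-04, against 0.120) and without control replicate 1 (-0.87, limma adjusted p = 0.0436).

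Itgb3 at 96 hours measured 5.13, 4.65 and 5.36 with the combination, 4.99, 4.46 and 4.44 with T3, 4.59, 4.51 and 4.84 with quetiapine, and 4.61, 4.47 and 4.30 in control. The combination arrays lay just above the control arrays. The change of 0.59 ± 0.19 was at the fold limit, at 1.501-fold (limma adjusted p = 0.0409), and was lost without control replicate 2, control replicate 3, combination replicate 1 or combination replicate 3 (limma adjusted p = 0.0836, 0.132, 0.0985 and 0.149). The gene is among the dimmest 40%. At 48 hours its change with the combination was 0.62 (limma adjusted p = 0.0667), called with the block (0.0139) and without combination replicate 2 (0.0310). Itgav, the alpha V subunit gene, averaged 9.46 with the combination, 9.55 with T3, 9.55 with quetiapine and 9.71 in control at 96 hours and was not called (-0.24 ± 0.14, limma adjusted p = 0.235).

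Itgal and Itgb2, integrin subunits known from leukocytes, rose with the combination at 96 hours. Their products form LFA-1, an adhesion receptor of white blood cells and microglia. Itgal measured 7.98, 8.47 and 8.12 with the combination, 8.07, 8.33 and 7.99 with T3, 8.09, 7.94 and 7.47 with quetiapine, and 6.94, 7.88 and 7.27 in control. Itgb2 measured 6.42, 6.79 and 7.13 with the combination, 6.26, 6.54 and 6.31 with T3, 6.62, 6.79 and 6.53 with quetiapine, and 5.41, 6.44 and 5.81 in control. Control replicate 2 was the highest control for both genes, and for Itgb2 it lay just above combination replicate 1. The changes were 0.83 ± 0.24 for Itgal and 0.89 ± 0.24 for Itgb2 (limma adjusted p = 0.0208 and 0.0148). That of Itgal was not called without control replicate 1, control replicate 3 or combination replicate 2 (limma adjusted p = 0.0766, 0.0665 and 0.0866), that of Itgb2 not without control replicate 1 or combination replicate 3 (0.0520 and 0.0613), and neither in 1 fit over all 24 arrays (0.122 and 0.108).

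With the block, Itgal also rose with T3 by 0.77 and Itgb2 with quetiapine by 0.76 (limma adjusted p = 0.00915 and 0.0158, against 0.0592 and 0.0918), and Itgal with T3 was called also without the dimmest 40% of probe sets (0.0458). Without control replicate 2 both rose with T3 (limma adjusted p = 0.0152 for Itgal and 0.0386 for Itgb2) and Itgb2 with quetiapine (0.0219). At 48 hours control replicate 2 had 8.65 for Itgal and 7.85 for Itgb2, the highest of all arrays for both genes, and the mean of the 12 microglial markers was also the highest there, at 6.68. At 96 hours that mean was 5.38 to 5.61 with the combination and 5.29 to 5.95 in control, and none of the 12 was called with either fit, while 6 of them were among the dimmest 40%. Itgam, which pairs with Itgb2 in microglia, was among the dimmest 40% and averaged 4.72 with the combination and 4.77 in control. The part of microglia in these values was not tested.

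**Figure D5:**
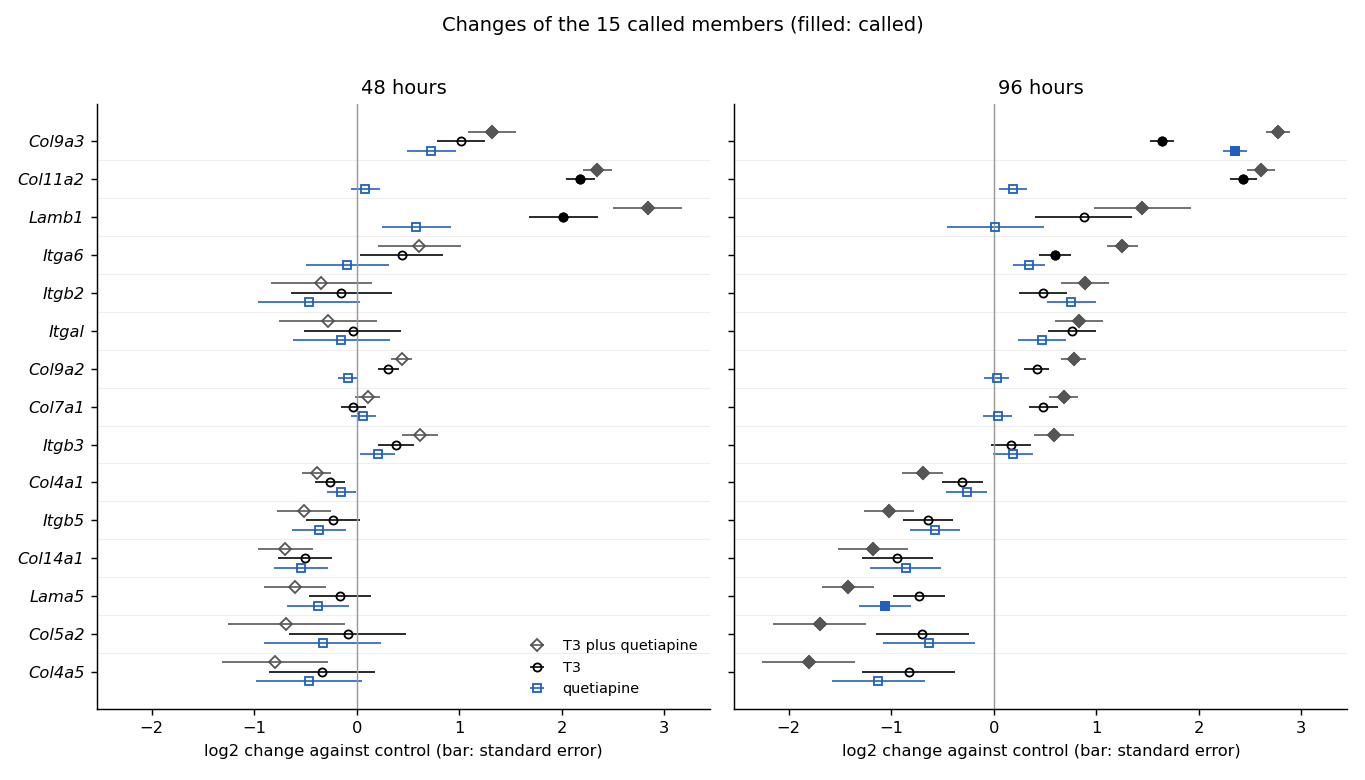
Log2 change against control (x axis, with standard errors) of the 15 genes called in at least 1 comparison (y axis) for each treatment at 48 hours (left) and 96 hours (right), filled where called. At 96 hours the Col11a2 points lie at 2.61 for the combination and 2.43 for T3, while its quetiapine point lies near 0, and Lama5 is the 1 gene below 0 that is filled for quetiapine.

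Against quetiapine at 96 hours, the combination was higher in 4 of the 77 genes, Col11a2, Itga6, Col9a2 and Col7a1, and lower in none, beside 2.03% of all probe sets called higher and 1.75% lower. With the block there were 5 higher and 3 lower (3.23% of all probe sets higher and 3.36% lower in that fit), the last being Col5a2, Lamb2 and Col4a5 (-1.07, -0.82 and -0.68; limma adjusted p = 6.75e-04, 3.44e-04 and 0.00670 with it, and 0.195, 0.359 and 0.439 without). Without combination replicate 1, Col27a1 rose (0.81, limma adjusted p = 0.0413) and Col4a1 fell (-0.66, limma adjusted p = 0.0308) in this comparison. Against T3, the block added falls of Itgb4, Col5a2, Col4a5, Lamb2 and Lama5 and a rise of Itga6 to the rise of Col9a3 (1.6% of all probe sets higher and 2.85% lower in that fit). Between quetiapine and T3 it added falls of Itgb4 and Lamb1 (1.13% higher and 3.2% lower). With the combination against T3, the changes of Col5a2, Col4a5, Lamb2 and Lama5 were -0.9996, -0.98, -0.91 and -0.69 (limma adjusted p = 0.00155, 0.00186, 3.58e-04 and 0.00252 with the block, against 0.301, 0.311, 0.374 and 0.200 without it). Without combination replicate 1, Col27a1 rose against T3 as well (0.92, limma adjusted p = 0.0492).

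In the control cultures themselves, none of the 77 genes was called between 96 and 48 hours with limma (0.0129% of all probe sets higher and 0.00966% lower), and 9 had an unadjusted p under 0.05. The median change was 0.039, against -0.0064 over all probe sets. With the block, Col4a5, Lama5 and Lamb2 were higher at 96 hours by 0.69, 0.72 and 0.86 (limma adjusted p = 0.0286, 0.0108 and 0.00234, against 0.721, 0.527 and 0.654), beside 1.32% of all probe sets higher and 0.0741% lower. These 3 genes thus rose in control with time in the paired fit and were lower with the combination than in control at 96 hours. The change with the combination also differed between 96 and 48 hours in that fit for 7 genes other than Col9a3, none of them called without the block (4.53% of all probe sets higher and 4.34% lower with it). It was lower at 96 hours for Lamb1, Col5a2, Col4a5, Col12a1, Lama5 and Lamb2 (differences of -1.39, -1.01, -1.01, -0.99, -0.82 and -0.62, limma adjusted p with the block from 0.00265 for Col12a1 to 0.0383 for Lamb2, and without it from 0.0777 for Col12a1 to 0.698 for Lamb2). For Itgb2 it was higher by 1.24 (limma adjusted p = 0.0465, against 0.242).

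The enzymes and partners that act with these proteins were read from lists of genes by function. Of 14 collagen synthesis and crosslinking enzymes, 1 rose and 2 fell with the combination at 96 hours. Pcolce, which enhances the cutting of procollagen, rose by 2.48 ± 0.34 (limma adjusted p = 3.28e-04), while Serpinh1, the collagen chaperone HSP47, and Loxl3, a lysyl oxidase, fell (changes of -2.19 and -1.07, limma adjusted p = 2.16e-04 and 0.00843). Of 10 basement membrane partners and laminin receptors outside the integrins, 2 rose and 4 fell. The collagen receptor Ddr1 rose by 1.36 and the nidogen Nid2 by 1.25, whereas the changes of Sparc, agrin (Agrn), the nidogen Nid1 and the collagen receptor Ddr2, which fell, were -1.92, -1.81, -1.31 and -1.11.

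Of 8 other matrix ligands of integrins 3 fell, namely tenascin C (Tnc), fibronectin (Fn1) and tenascin R (Tnr), with changes of -2.58, -0.94 and -0.59, and none rose. Of 13 cytoplasmic partners of integrins, the kinase Ilk rose by 0.66, and Actn1, Parva, Zyx and Lims1, which link integrins to actin, fell (changes of -1.80, -1.30, -0.93 and -0.62). Of 11 matrix proteases and inhibitors, Adamts1 and Adamts4 rose by 3.80 and 1.60, and Mmp2, Mmp14, Timp3 and Mmp15 fell (changes of -2.03, -1.99, -1.31 and -0.996). Over the 5 lists, 6 of 56 measured genes rose and 17 fell with the combination (6.91% of all probe sets called higher and 8.37% lower), 3 rose and 6 fell with T3 (3.35% and 2.48%), and 2 rose and 6 fell with quetiapine (2.14% and 1.15%). With the replicate as a block, 7 rose and 19 fell with the combination (7.53% and 9.57%), with 1 rise among the matrix ligands and 6 falls among the proteases and inhibitors. In that fit 6 rose and 12 fell with T3 (4.46% and 4.26%), and 5 rose and 14 fell with quetiapine (2.97% and 3.49%).

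Other markers moved in the same arrays as the genes that fell. With the combination at 96 hours, 4 of 7 astrocyte markers fell and 1 rose, and the mean of that list was 10.3 to 10.9 with the combination and 11.4 to 11.8 in control. Among the 11 fibroblast and mural markers 2 fell, Tagln and Pdgfrb (changes of -3.35 and -1.44), and the mean of that list was 5.24 to 5.28 with the combination and 5.70 to 5.82 in control, while the median change over the 11 genes was -0.087. Among the 9 mature oligodendrocyte markers 6 rose, with list means of 12.5 to 13.1 with the combination and 10.7 to 11.1 in control, and 2 of 8 precursor markers fell. With the replicate as a block 4 precursor markers fell, and the other marker counts given here were the same. Of all probe sets 6.91% were called higher and 8.37% lower, and 7.53% and 9.57% with the block. The part of a changed make-up of the cultures in the values of the collagen, laminin and integrin genes was not tested.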

How the data were processed

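The authors deposited log2 expression of 24 Affymetrix rat arrays after RMA, which corrects background, makes the arrays' distributions equal by quantiles and summarises probes into probe sets, so depth does not apply and the number of arrays limits the precision. RMA and limma are the tools that the submitters' notes name, without versions. The day 0 cultures and the raw intensities were not analysed here. Values were used as deposited, with symbols from the array annotation. The 57 control probe sets among 31099 did not enter. A shift of intensity that all probe sets share is removed by quantile normalization.

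For the 12 arrays of each time, limma 3.58.1 (R 4.3.3) fitted a linear model with 4 group means and no replicate term, since the methods name none. Times were compared in 1 model of all 24 arrays. The adjustment of p values (Benjamini-Hochberg) ran over the 31042 other probe sets. The fit was tested on simulated data. The limits of a call (adjusted p under 0.05, fold over 1.5) are those of the study. The deposited design states that each biological replicate supplied every condition, so replicate numbers pair the arrays. Deviations from the group means of arrays with the same number correlated at 0.430 to 0.777 at 48 hours and 0.309 to 0.690 at 96 hours (18 pairs each), and those of different numbers at -0.681 to -0.00478 and -0.583 to 0.243 (36 pairs each).

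The genes named were all called members, up to 4 of the brightest members of each role, and Mbp and Pdgfra, with values in every array for those called most often. The members, the lists and this rule were chosen with earlier results of these data known. Chains named as partners, genes called only with the block or without 1 array, and called genes of the related lists were named after their values were seen. Which genes lie next to each other was taken from a RefSeq table of the assembly Rrattus_CSIRO_v1, in which 70 of the 77 symbols were found. That assembly is of Rattus rattus, the species of the series label, whereas the methods name Sprague Dawley rats (Rattus norvegicus). Gene order in the latter was not checked. Alternatives were the replicate block, 1 fit over all 24 arrays, centring of arrays, leaving out the dimmest 40% of probe sets, no fold limit, the mean of all probe sets of a gene, and leaving out each array.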

Additional observations from a re-analysis of the deposited data

Results flagged for a closer look

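The change of Col9a3 differed between times in a test of the difference itself. Its change with quetiapine against control was larger at 96 than at 48 hours by 1.63 (limma adjusted p = 0.0191), and its change with the combination by 1.45 (limma adjusted p = 0.00403). In each of the 3 replicates both changes were larger at 96 hours.

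Col9a3 also differed in its log2 response to quetiapine with and without added T3 at 96 hours, with an interaction of -1.23 (limma adjusted p = 0.0447). That call was lost without any 1 of the 12 arrays (limma adjusted p from 0.0662 to 0.159) and in 1 fit over all 24 arrays (0.374). Quetiapine added 1.13 to the log2 expression in the presence of T3 and 2.36 in its absence. Apart from leaving out each array in turn, no test for outlying arrays within the groups of 3 was made.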

How the results depend on the processing

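None of the 33 called changes reversed under any alternative. With the replicate as a block in the paired fit, all 33 stayed called, and the counts of risen genes became 7 with the combination (2.22% of all probe sets in that fit), 5 with T3 (1.7%) and 1 with quetiapine (0.464%) at 48 hours, 6 with T3 (4.46%) and 2 with quetiapine (2.97%) at 96 hours, 2 for the combination against T3 (1.6%) and 3 for control at 96 against 48 hours (1.32%). The counts of fallen genes became 4 with the combination at 48 hours (2.82%), 5 with T3 (4.26%) and 3 with quetiapine (3.49%) at 96 hours, 5 for the combination against T3 (2.85%), 3 for the combination against quetiapine (3.36%) and 3 for quetiapine against T3 (3.2%). The other 9 of the 22 counts stayed within 1.5 times, the largest being 10 risen and 7 fallen with the combination at 96 hours.

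Without the dimmest 40% of probe sets, 1 gene rose with T3 at 48 hours, Lamb1 being left out, and 2 rose with the combination against T3, as they did with arrays centred on their medians. With no fold limit, 10 fell with the combination, 1 with T3 and 2 with quetiapine at 96 hours. With the mean of all probe sets of a gene, 0 fell with quetiapine at 96 hours. In 1 fit over all 24 arrays, 2 fell with quetiapine against T3, and 0 in the interaction. The cause was not tested. Of the 33 changes, 5 lost the call in the fit over all arrays and 4 with the mean of the probe sets.

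Leaving out 1 array kept the call in 147 fits of a called change and ended it in 57. At 48 hours the count of rises with T3 ran from 1 to 2. At 96 hours, rises ran from 2 to 5 with T3, 1 to 2 with quetiapine, 1 to 2 for the combination against T3 and 0 to 1 for quetiapine against T3. Falls ran from 0 to 3 with T3, 0 to 3 with quetiapine, 3 to 7 with the combination, 0 to 1 for the combination against T3, 0 to 1 for the combination against quetiapine and 1 to 2 for quetiapine against T3, and were 0 in every such fit of the interaction.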
